A study of Mus musculus with 4 samples.

Results

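The classical, DM and DO genes of MHC class II, the invariant chain gene Cd74 and the transactivator gene Ciita were examined for H3K27me3 in germinal center B cells. These 10 genes, of 21887 protein-coding genes in the annotation, were taken by name: H2-Aa, H2-Ab1, H2-Eb1, H2-DMa, H2-DMb1, H2-DMb2, H2-Oa, H2-Ob, Cd74 and Ciita. H3K27me3 is a histone mark laid down by a Polycomb repressive complex. It was mapped by CUT&Tag, which tags the DNA beside an antibody-bound mark with a transposase. The KO group held 2 libraries from mice with a B-cell knockout of Kdm6b, the demethylase that removes this mark, and the WT group held 2 libraries from wild type mice. All 4 libraries came from spleens of C57BL/6 animals given sheep red blood cells, challenged again on day 5 and killed on day 12, and the series title calls the sorted cells pre-plasma. The labels do not state the driver or extent of the knockout, the age or sex of the mice, or the sort markers.

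MHC class II molecules carry peptides from ingested antigen to the cell surface for CD4+ T cells, and B cells make them throughout life until they become plasma cells. H2-Aa with H2-Ab1, and H2-Eb1 with a partner chain, form the surface molecules. Cd74 occupies their groove during transport, H2-DM loads the peptide, and H2-DO restrains H2-DM. Ciita is the coactivator that switches the whole group on by docking on the factors bound at the X and Y boxes of their promoters. Plasma cells shut Ciita off through Blimp-1, the product of Prdm1. Mice of the C57BL/6 strain lack a working H2-Ea gene and so show no surface I-E molecule, although H2-Eb1 is intact.

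The lists held 80639 and 90417 peaks in KO replicates 1 and 2, against 87486 and 82292 in WT replicates 1 and 2, and covered 144 and 236 Mb in KO against 213 and 101.4 Mb in WT. The breadth of a list thus varied more within a genotype than between genotypes, and shares over all genes are therefore given for each library. Replicate numbers only name the libraries, and read depth was unknown. The targeted gene Kdm6b was covered over 41.3% and 66.6% of its body in KO and 49.6% and 36.7% in WT, which does not check the genotype, since a peak map cannot show a deletion. Genes of the labelled cell type were mostly free of the mark. Of 15 B cell and germinal center genes, 1 and 3 had an end covered to at least 25% in KO and 0 and 0 in WT. Of 9 T cell genes, 7 and 9 did in KO and 9 and 8 in WT, and of 12 myeloid genes, 7 and 11 did in KO and 10 and 6 in WT. Of 6 plasma cell genes, 2 and 4 did in KO and 2 and 2 in WT. Among all genes, 33.9% and 46.7% did in KO, against 41.1% and 26.9% in WT. Whether other cells in the sort contributed was not tested.

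Peaks were all but absent from the class II genes in both genotypes. Each gene end was measured as the share of a 4 kb window, 2000 bp to each side, that peaks covered. Over 20 gene ends and 4 libraries there were 80 such values, and 77 of them were 0. An end is called marked where at least 25% of its window was covered. By that rule 0 and 0 of the 20 ends were marked in KO replicates 1 and 2, and 1 and 0 in WT replicates 1 and 2. Among all gene ends the marked share was 22.6% and 33.1% in KO, against 28.8% and 17.3% in WT. Some coverage, however small, was found at 0 and 1 of the 20 ends in KO and at 2 and 0 in WT, where it was found at 31.8% and 40.9% of all ends in KO and 36.6% and 28.3% in WT. Only 3 of the 20 ends held coverage in any library, beside 47.5% of all ends. An end marked in both KO libraries and neither WT library made up 0.923% of all ends, and the opposite pattern 0.16%, and 0 of the 20 ends showed either. No peak touched the body of any of the 10 genes in KO, and in WT 1 peak in 1 library did. Among all genes, the body held at least some peak in 45.2% and 55.5% in KO and in 49.8% and 42.4% in WT. Of the 10 gene bodies, 1 held a peak in any library, beside 63.1% of all gene bodies.

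The genes for the surface molecules had no peak over their bodies. H2-Eb1, on chromosome 17 at 34305867 to 34316674 in mm10, encodes the I-E beta chain and had no peak over its body or within 20 kb of it in any library. H2-Ab1 (34263227 to 34269418), which encodes the I-A beta chain, had 0% at both ends in all 4 libraries. Within its 20 kb flanks lay a peak of 367 bp in KO replicate 1, at 4987 bp from the gene, and a peak of 1164 bp in WT replicate 1, at 10795 bp. H2-Aa (34282744 to 34287823), which encodes the I-A alpha chain, was covered over 0% and 0% of its 3′ window in KO and 15.8% and 0% in WT. This coverage came from that same 1164 bp peak, which ended 1366 bp from the gene. Its 5′ window had 0% in all 4 libraries. Each of these peaks was seen in a single mouse, so the genotypes overlapped at 0.

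The DM genes carried the only peak that entered a gene body. H2-DMb2 (34143229 to 34151553) encodes a beta chain of the peptide-loading H2-DM molecule. Its 5′ window was covered to 0% and 0% in KO, against 41.4% and 0% in WT, and its body to 0% and 0% in KO, against 27.5% and 0% in WT. The peak behind these values, of 2290 bp, lay in WT replicate 1 alone, and its total signal stood above only 13.1% of the peaks in that list. The difference was -20.7 points at the 5′ window (SE 17.5, limma adjusted p = 0.907). H2-DMb1 (34153191 to 34160229), the neighbouring beta chain gene, and H2-DMa (34119693 to 34139101), which encodes the alpha chain, had 0% at both ends and over the body in all 4 libraries. The nearest peak in WT replicate 1 was again that over H2-DMb2, at 7328 bp from H2-DMb1 and 4471 bp from H2-DMa, while KO replicates 1 and 2 and WT replicate 2 had none within 20 kb of these 3 genes. The annotated body of H2-DMa overlaps that of Brd2 at its lower end, and the lower-end window of H2-DMa lies within Brd2. The promoter stretches of H2-DMb1 and H2-DMb2 given below are alike at most bases. Whether reads were assigned to the right one of these 2 genes was not tested.

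The DO genes, which encode the inhibitor of H2-DM, were also bare over their bodies, but H2-Oa had short peaks on its lower side in every library. H2-Ob (34238905 to 34245908) had 0% at both ends in all 4 libraries and a single peak within 20 kb, the 367 bp peak of KO replicate 1 at 11964 bp. H2-Oa (34092379 to 34095234) had 0% over its body and ends, yet 3 peaks lay within 20 kb of it in each of the 4 libraries, all on its lower side. The gene with its flanks was covered to 6.21% and 9.98% in KO, against 9.67% and 4.83% in WT. Over all genes the median share was 4.32% and 9.01% in KO, against 7.46% and 2.90% in WT. KO and WT overlapped for H2-Oa, and the difference of 0.837 points had an SE of 3.05 (limma adjusted p = 1.0). The peaks nearest H2-Oa ended 5193 and 5910 bp from it in KO, against 6247 and 9308 bp from it in WT, over BC051537 or the pseudogene H2-Pa in 3 libraries and over no annotated gene in WT replicate 2. Their total signal stood above 6.05% and 15.6% of the peaks in their lists in KO, against 66.6% and 4.33% in WT.

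**Figure D1:**
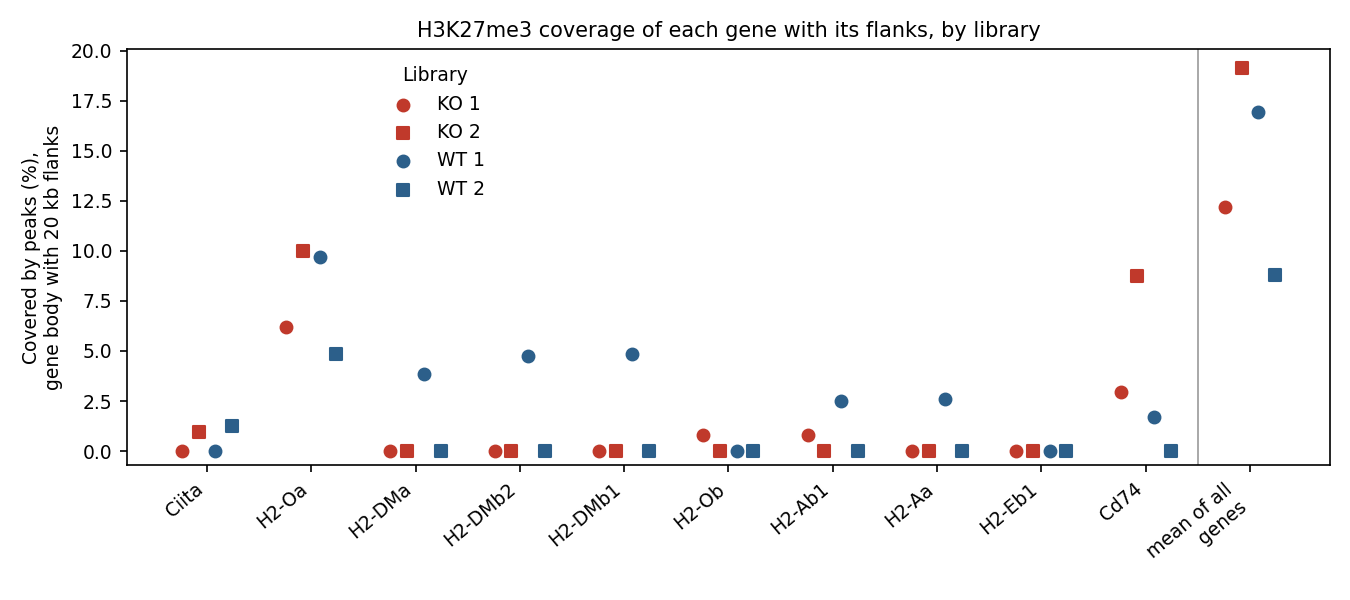
Covered share in percent of each gene body with 20 kb to each side, with KO (red) left of WT (blue) and each point a library. H2-Oa lies between 4.83% and 9.98%, Cd74 reaches 8.75% in KO replicate 2, and the mean over all genes lies between 8.78% and 19.1%.

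Cd74 and Ciita lie on other chromosomes and were bare as well. Cd74 (chromosome 18, 60803849 to 60812652) encodes the invariant chain and had 0% over its body and at both ends in all 4 libraries. With its 20 kb flanks it was covered to 2.93% and 8.75% in KO, against 1.70% and 0% in WT, a difference of 4.99 points (SE 3.03, limma adjusted p = 1.0). Both KO libraries lay above both WT libraries, a pattern shown by 9.84% of all genes tested with their flanks. All of this coverage lay on the higher side, within Tcof1, a gene of ribosome production, and was nearest in KO replicate 2, at 3936 bp from Cd74.

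Ciita (chromosome 16, 10480014 to 10531064) had no peak over its 51051 bp in any library. Its lower-coordinate window was covered to 0% and 10.975% in KO, against 0% and 0% in WT (difference 5.49 points, SE 6.00, limma adjusted p = 0.907). That coverage came from 1 peak of 861 bp in KO replicate 2, which ended 1561 bp from the gene and had a total signal above only 4.58% of the peaks in its list. The other peak within 20 kb was in WT replicate 2, at 15433 bp. The peak-free span around Ciita was long in every library, at 355 and 266 kb in KO and 300 and 149.8 kb in WT, where the median span between peaks was 2.19 and 1.85 kb in KO and 2.01 and 2.62 kb in WT. It was longer than 98.6% and 98.5% of spans in KO and 98.6% and 97.0% in WT. A span around a peak-free gene of 51051 bp cannot be shorter than the gene. In KO replicate 1 a span of 54.3 kb already exceeded 92.9% of spans, so high ranks largely follow from the peak-free body.

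**Figure D2:**
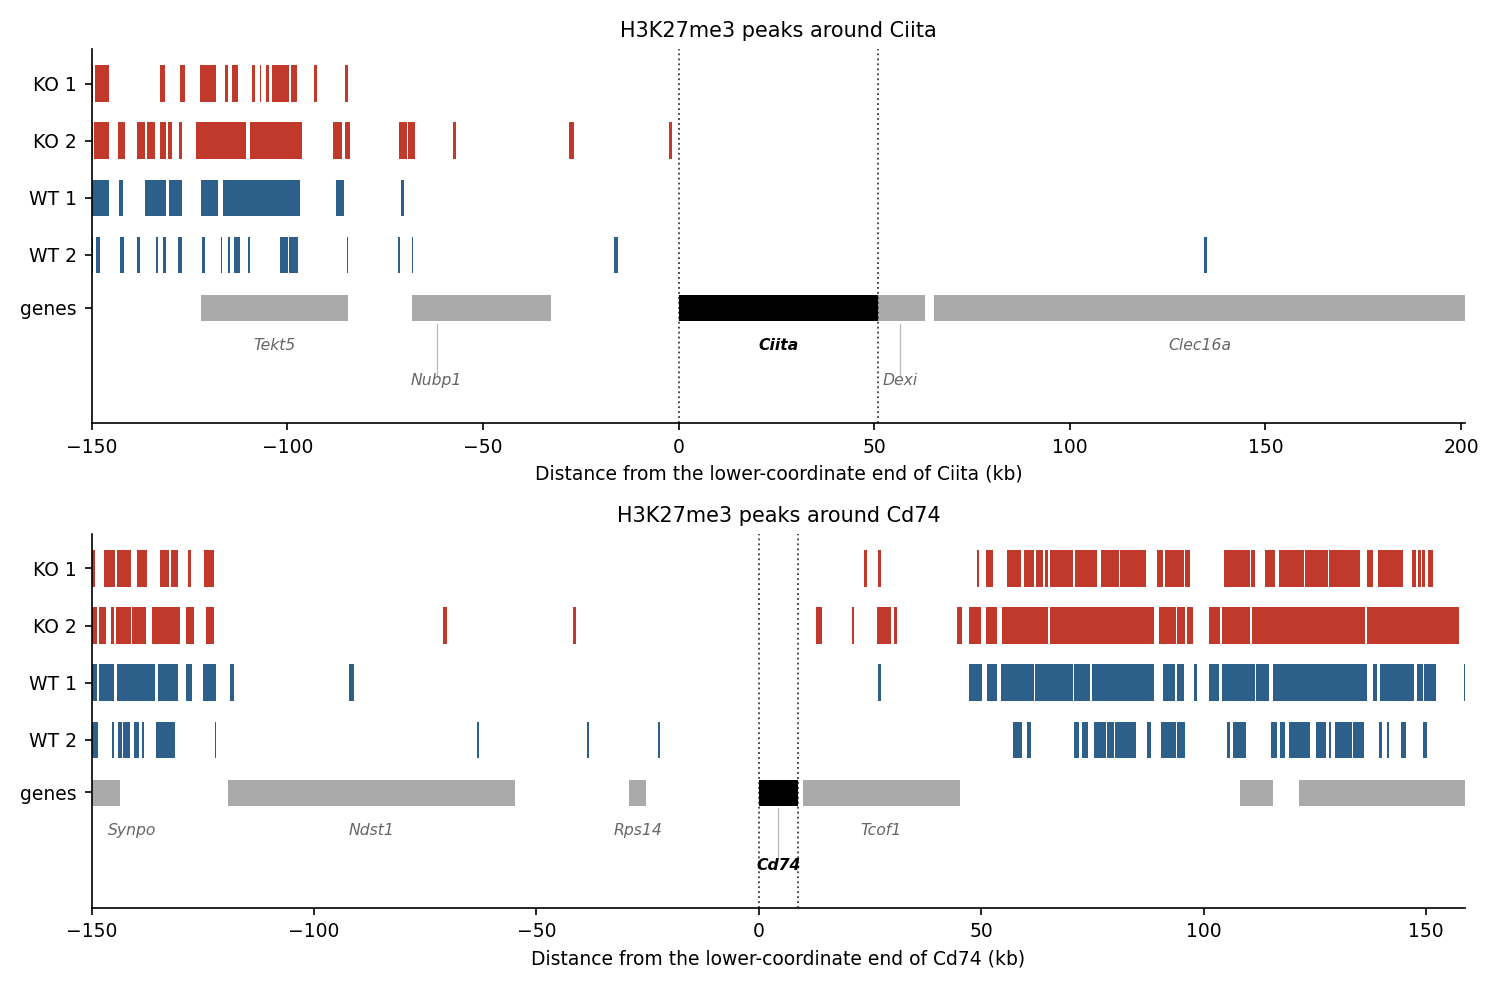
Peaks of each library (KO red, WT blue) and protein-coding genes (Ciita and Cd74 black, others grey) around Ciita and Cd74, by distance in kb from the lower-coordinate end of each gene, with dotted lines at the gene ends. Ciita and Cd74 hold no peak, dense peaks lie below Ciita over Tekt5, and dense peaks lie above Cd74 near and beyond the far end of Tcof1.

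The nearest marked blocks on each side of Ciita and Cd74 were then located. A peak-free gene lies between blocks by construction, so only the distances are reported, as descriptions. A block was defined as peaks of a library joined over gaps of at most 2000 bp, with a joined length of at least 5000 bp. Below Ciita, blocks ended 97.5 and 96.2 kb away in KO, against 96.7 and 147.9 kb away in WT. In both KO libraries and WT replicate 1 they lay over Tekt5, a gene of the sperm flagellum, and in WT replicate 2 over Emp2. Above Ciita, beyond the large gene Clec16a, they began 230 and 219 kb away in KO, against 223 and 343 kb away in WT. Above Cd74, blocks began 47.1 and 35.7 kb away in KO, against 38.4 and 62.1 kb away in WT. Below Cd74 they ended 137 and 127 kb away in KO, against 127 and 138 kb away in WT, over Synpo, an actin-associated gene. Of the differences between genotypes at these 4 edges, none came nearer the threshold than an exact permutation p = 0.667, where the smallest p that 2 mice against 2 can give is 0.333.

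The 8 class II genes on chromosome 17 span 224 kb, from the lower end of H2-Oa to the higher end of H2-Eb1 (34092379 to 34316674). Peaks covered 0.729% and 0.749% of this interval in KO and 2.37% and 0.650% in WT, with 2 and 1 peaks in KO and 3 and 2 in WT. KO averaged 0.739% ± 0.0142 and WT 1.51% ± 1.21 (SD, n = 2 each), with an exact two-sided permutation p = 1.0. The difference of -0.770 points rested on WT replicate 1, without which it was 0.0889 points. The 100 kb below the interval, toward the class I gene H2-K1, were covered to 14.1% and 18.9% in KO, against 19.6% and 8.82% in WT. The 100 kb above it were covered to 1.99% and 6.34% in KO, against 1.498% and 1.05% in WT (exact permutation p = 0.333, the smallest possible). Peaks thus came close to the interval at H2-Oa, while low coverage went on past H2-Eb1. Coverage of the 20 kb just below H2-Oa was 13.3% and 21.4% in KO, against 20.7% and 10.4% in WT, and in the first 20 kb above that edge it was 0% in all 4 libraries. High coverage returned 320 to 340 kb above that edge, at 51.1% and 77.0% in KO, against 66.9% and 13.4% in WT.

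**Figure D3:**
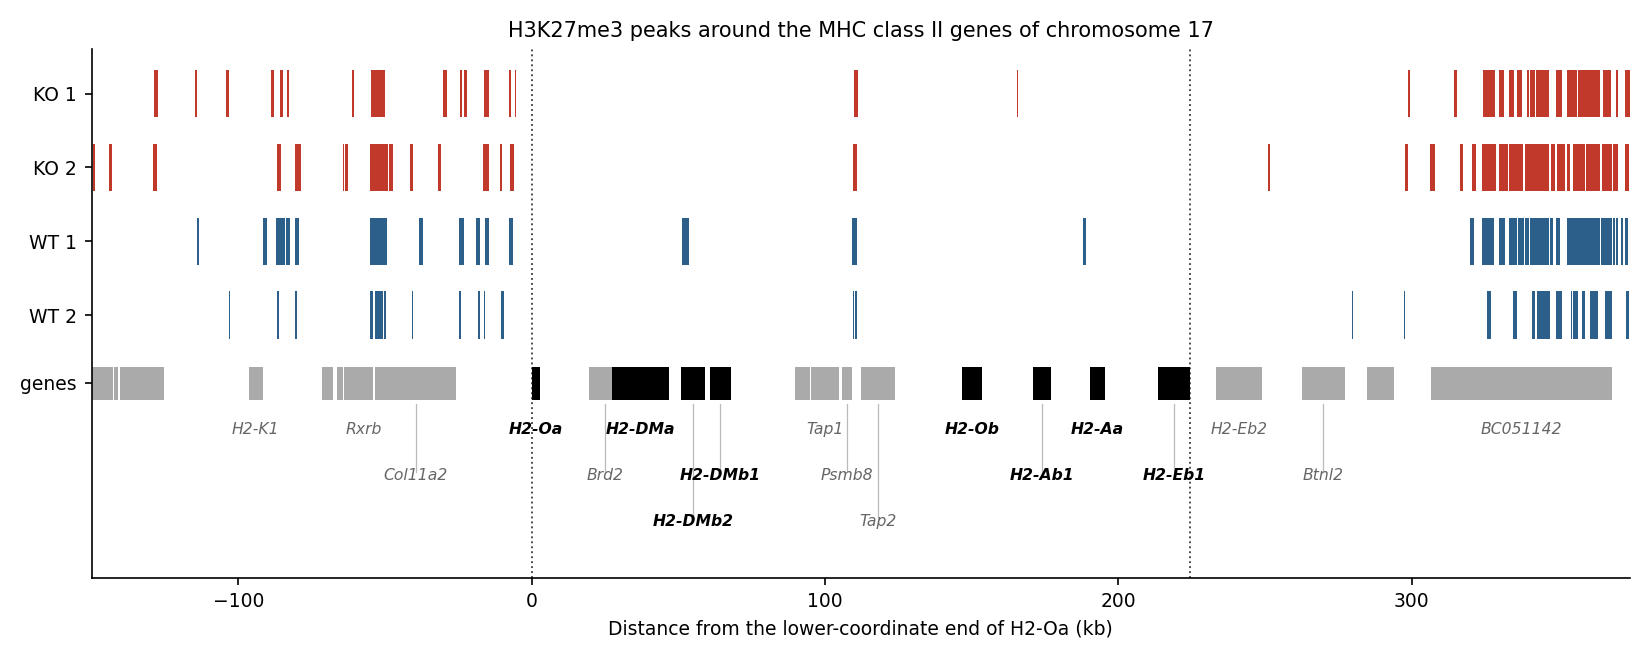
Peaks of each library (KO red, WT blue) and protein-coding genes (class II genes black, others grey) along chromosome 17, by distance in kb from the lower-coordinate end of H2-Oa, with dotted lines at the ends of the 224 kb class II interval. Peaks come within 9.31 kb of the edge at H2-Oa in every library, 1 site between Psmb8 and Tap2 is marked in all 4 libraries, and dense peaks resume over BC051142.

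A single site inside the interval was marked in every library, and it belonged to none of the class II genes. It lay between Psmb8, which encodes an immunoproteasome subunit, and Tap2, which encodes part of the peptide pump for class I loading. The 3024 bp between these genes were covered to 41.9% and 55.6% in KO, against 61.4% and 48.2% in WT. The bases shared by all 4 libraries ran from 34202416 to 34203397, a stretch of 982 bp. Its peak, the higher of 2 in WT replicate 2, ranked above 64.5% and 72.1% of peaks by total signal in KO and above 72.0% and 71.2% in WT. It was the only stretch shared by all 4 libraries within the 224 kb. Away from it, the longest peak-free span was 133 and 139.8 kb in KO and 131 and 168 kb in WT, and it held H2-Aa and H2-Eb1 in every library.

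On the lower side the nearest block lay over Rxrb, a nuclear receptor gene, and Col11a2, a cartilage collagen gene, in 3 of the 4 libraries. Blocks ended 275 and 47.3 kb below H2-Oa in KO and 49.3 and 49.8 kb below it in WT, with lengths of 13.4 and 7.92 kb in KO and 5.69 and 5.46 kb in WT. The distant value in KO replicate 1, over Kank3, reflects the length limit, because its peak over Rxrb and Col11a2 (34037527 to 34042416) was 4890 bp long and just missed it. The difference in distance was 111 kb with that library and -2.24 kb without it (exact permutation p = 1.0 with all 4). On the upper side, blocks began 99.9 and 96.3 kb above H2-Eb1 in KO and 99.7 and 117 kb above it in WT, each time within BC051142. KO averaged 98.1 ± 2.53 kb and WT 108 ± 11.9 kb (SD, n = 2 each), with an exact permutation p = 0.667. Lone peaks came nearer. In KO replicate 2 a peak of 912 bp lay over H2-Ea, the strain's inactive I-E alpha gene, 26.6 kb above H2-Eb1, while the nearest peak in KO replicate 1 was 74.3 kb away and the nearest in WT were 95.7 and 55.2 kb away.

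Of the 10 genes, 7 had promoter windows in RefSeq (GRCm38.p6, the assembly of mm10), 8 windows in all, each running from 250 bases before to 50 after a gene start. Peaks covered 0% of 7 of these 8 windows in all 4 libraries. The window of H2-DMb2 was covered to 0% and 0% in KO, against 100% and 0% in WT. The listed starts of H2-DMb2 and H2-DMa lie inside the annotated genes, outside the gene-end windows measured above. The promoter window of H2-DMb2 still overlaps its 5′ window in large part. The same peak of WT replicate 1 reached both, so the 2 values are not separate. Among 32851 windows of the same length, 28.5% and 39.5% had some coverage in KO and 35.2% and 22.1% in WT. The stretches that follow come from 5 promoters without a peak and from that of H2-DMb2, and are shown for the X and Y boxes through which Ciita acts. All 6 hold a match to the Y box letters, and those of H2-Aa, H2-Eb1, H2-Ob and H2-DMb1 also hold a match to the X box letters. They are written 5′ to 3′ on the gene's strand, with matches to the letters CTNGNAAC (X box core) and ATTGG (Y box core) in capitals.
H2-Aa, chr17:34287857-34287916, minus strand: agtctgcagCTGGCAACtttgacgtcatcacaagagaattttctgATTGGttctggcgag
H2-Eb1, chr17:34305763-34305822, plus strand: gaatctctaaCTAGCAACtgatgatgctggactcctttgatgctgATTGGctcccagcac
H2-Ob, chr17:34238803-34238862, plus strand: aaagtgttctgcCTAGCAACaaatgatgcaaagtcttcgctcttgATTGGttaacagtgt
H2-DMb1, chr17:34153085-34153144, plus strand: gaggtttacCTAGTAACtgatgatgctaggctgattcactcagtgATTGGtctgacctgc
H2-DMb2, chr17:34145114-34145173, plus strand: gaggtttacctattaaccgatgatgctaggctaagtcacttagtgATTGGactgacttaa
H2-Oa, chr17:34092291-34092350, plus strand: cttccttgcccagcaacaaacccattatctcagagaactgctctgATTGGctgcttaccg

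The Y box letters occurred in 7 of the 8 windows, 1 for each gene, against 37.4% of all windows with both strands searched. The X box letters occurred in 4 of the 8 windows, against 13.2% of all. In H2-Aa, H2-Eb1, H2-Ob and H2-DMb1 the Y box followed the X box on the gene's strand at 36, 35, 33 and 36 bases from start to start. Such a pair, at 15 to 60 bases, was found in 0.234% of all windows. The X box letters were chosen after these sequences had been read, so the shares are descriptions. They are not binding data.

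No test of genotype called any of these genes. Limma was fitted to every gene end with coverage in some library, 20791 in all, and called 0% higher and 0% lower in KO at an adjusted p of 0.05, while 701 were higher and 109 lower before adjustment at p under 0.05. Both KO values lay above WT at 13.9% of these ends and below WT at 2.46%, and at 0 and 0 of the 3 tested here. Of the 20 class II and Ciita ends, 17 had no coverage anywhere and could not be tested, and the remaining 3 were those of H2-DMb2, H2-Aa and Ciita given above. Over gene bodies 0.0145% of 13805 genes were called higher and 0% lower in KO, and only H2-DMb2 could be tested. Bodies with both KO values above WT made up 12.3% and those below 2.75%, and H2-DMb2 was neither (difference -13.8 points, SE 12.0, adjusted p = 1.0). With 20 kb flanks 0% of 16967 genes were called in either direction, and 9 of the 10 genes entered that fit, with 0 called. The median difference over the 10 genes with their flanks, the untested gene taken as 0, was -0.507 points. Over all genes, with uncovered genes kept, the median was 0.967 points. Among tested genes alone the medians were -0.863 points here and 2.33 points over all. These genes are not separate values, since their flanks overlap. The 2290 bp peak of WT replicate 1 counted for H2-DMa, H2-DMb2 and H2-DMb1, and the 1164 bp peak of that library for H2-Ab1 and H2-Aa. Both KO libraries lay above both WT libraries for 1 of the 9 and below for 0, beside 9.84% and 1.99% of all genes tested. With 2 mice per genotype, these results do not show that the mark was the same in both.

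Marked ends were found among the other genes of the pathway. Of 21 regulators of class II transcription, 4 and 9 had a marked end in KO and 4 and 3 in WT, where the share among all genes was 33.9% and 46.7% in KO, against 41.1% and 26.9% in WT. Prdm1, whose product silences Ciita, was covered at its higher-coordinate end to 81.8% and 85.7% in KO, against 86.5% and 61.0% in WT. Pou2f2, which encodes the octamer factor Oct-2 of B cells, was covered to 65.0% and 90.7% in KO, against 60.9% and 56.5% in WT at the same end. Both genes were thus marked in every library. The groups overlapped for Prdm1, and both KO values lay above WT for Pou2f2, which limma did not call. That pattern was shown by 13.9% of all gene ends tested. Rfxap, a subunit of the factor that binds the X box, was covered at its higher end to 10.8% and 53.1% in KO, against 22.98% and 23.5% in WT. Nfyc, a subunit of the Y box factor, was covered to 68.9% and 63.2% in KO, against 69.3% and 14.2% in WT. Rfx5, the DNA-binding subunit at the X box, was marked in none of the 4 libraries.

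Antigen-processing and costimulatory genes varied from gene to gene. Of 11 genes of class II processing, 5 and 5 were marked in KO and 4 and 2 in WT. For these and the next counts, the share among all genes was 33.9% and 46.7% in KO, against 41.1% and 26.9% in WT. Ctsb, a lysosomal protease, was covered at its lower end to 63.2% and 66.4% in KO, against 65.9% and 48.9% in WT, while Ctss, the protease that trims the invariant chain in B cells, and Ifi30, the lysosomal thiol reductase, were marked in none. Of 9 costimulatory genes, 3 and 4 were marked in KO and 4 and 2 in WT. Icosl, the ligand for ICOS on T cells, was covered at its lower end to 100% and 100% in KO, against 94.2% and 67.0% in WT. Cd40, the receptor for T cell help, was covered at its lower end to 57.0% and 92.6% in KO, with 0% and 0% for WT. Its higher end had 0% and 19.4% in KO, with 34.8% and 14.2% for WT, and neither end passed limma. Ends marked in both KO libraries and neither WT library, as the lower end of Cd40 was, made up 0.923% of all ends. Of 21 class I pathway genes, 3 and 5 were marked in KO and 5 and 2 in WT, among them Psmb8, whose higher-coordinate window (29.0% and 42% in KO, 46.4% and 36.5% in WT) reaches into the shared site beside Tap2. The class I gene H2-Q7 was covered at its lower end to 55.2% and 89.1% in KO, against 53.3% and 49.3% in WT, but its family holds near-identical copies and its values are uncertain. No gene of these 4 lists passed limma in any of the 3 fits (smallest adjusted p = 0.907).

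Marked ends were also found among neighbours in the same stretches of chromosome, and their counts are to be read against the 33.9% and 46.7% of all genes in KO and the 41.1% and 26.9% in WT. Of 24 neighbours on chromosome 17, 10 and 15 were marked in KO and 12 and 10 in WT, and 8 of them in all 4 libraries. Another 6, Brd2, Ring1, Btnl1, Btnl2, Tnf and Lta, had no coverage at either end in any library. Windows of adjacent genes can share a peak, as the facing ends of Rxrb and Col11a2 did, so the counted neighbours are not separate values. Col11a2 was covered at its lower end to 84.8% and 94.4% in KO, against 89.2% and 77.3% in WT, and Notch4, a receptor gene, to 72.0% and 92.2% in KO, against 92.1% and 49.6% in WT. Of 8 neighbours of Ciita, 3 and 3 were marked in KO and 1 and 0 in WT. Socs1, which encodes an inhibitor of cytokine signalling, was covered at its higher end to 39.1% and 33.7% in KO, against 0% and 0% in WT, without passing limma, and such ends made up the 0.923% given above. Of 7 neighbours of Cd74, 2 and 4 were marked in KO and 3 and 1 in WT, led by Synpo. None of the neighbour genes passed limma either (smallest adjusted p = 0.907).

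**Figure D4:**
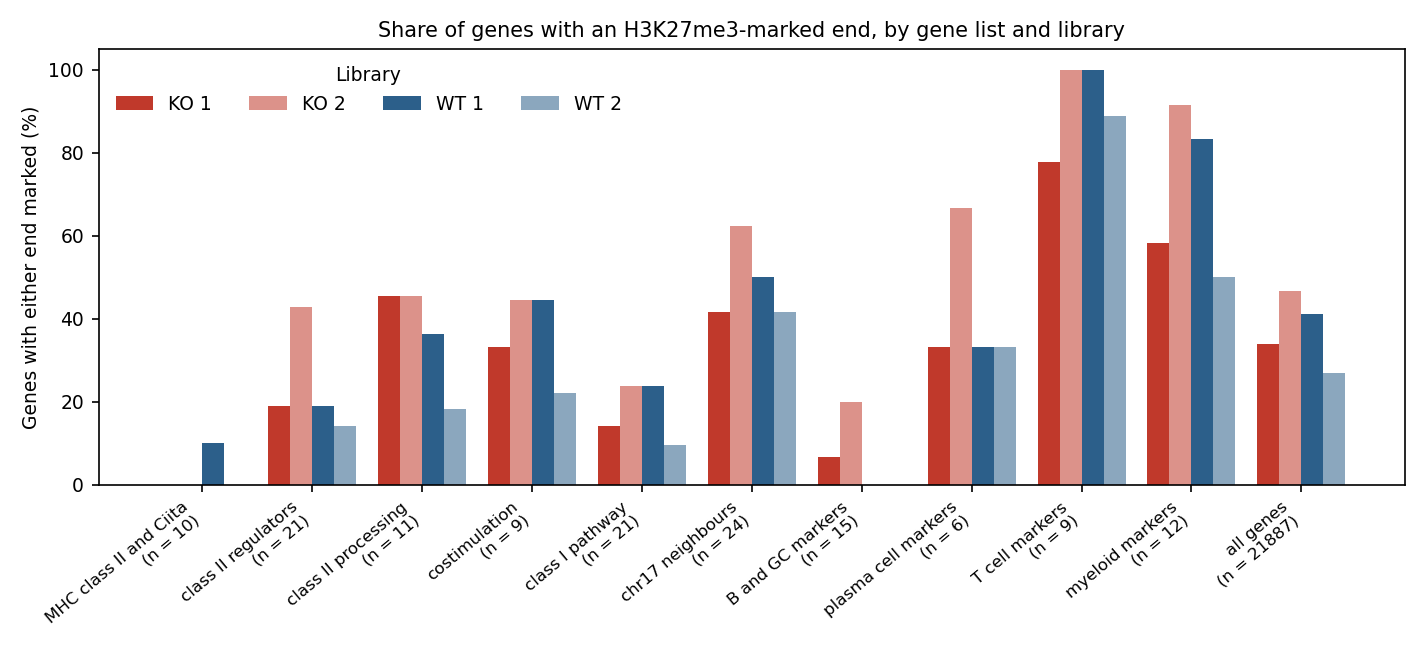
Share in percent of the genes of each list that had an end covered to at least 25%, with KO libraries (red) left of WT libraries (blue), replicate 2 in the paler shade of each, and all genes at the right. The class II genes and Ciita had 1 marked gene in WT replicate 1 and none elsewhere, B cell markers had few, and T cell markers had 7 to 9 of 9.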

How the data were processed

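H3K27me3 CUT&Tag was made from 1000 to 5000 sorted cells and 1 µg of antibody per library, per the labels' protocols. Trim Galore 0.6.6, Bowtie2 2.4.2, SAMtools 1.11, SEACR, deepTools and mm10 are named in the submitters' processing notes, with settings not given in the sources used here. The authors deposited a peak list per library, not pooled, with total and highest signal (coverage) of unstated scale. Signal served only to rank peaks within a list. Only peaks of autosomes 1 to 19 and of X and Y entered. Genes, with no strand except where a promoter entry gave it, came from RefSeq GRCm38.p6, and 153 of 154 listed symbols were found. Covered shares were computed for both ends and the body of every gene and for the body with 20 kb flanks, and features without coverage in any library were left out of limma 3.58.1 (lmFit, eBayes; R 4.3.3) with Benjamini-Hochberg adjustment. The fit was tested on simulated data with normal noise. Real covered shares are bounded and often without coverage, so that test does not show how the fit performs on them. Single values were compared by exact two-sided permutation over 6 relabellings. Python 3.11.15, numpy 2.4.6, pandas 2.3.3 and matplotlib 3.10.9 were used. Precision is limited by 2 mice per genotype, and limma draws each gene's spread towards a shared value. The genes and lists were chosen with earlier results of these data known. Genes named from the lists were among those with a marked end, up to 6 a list by mean covered share, and Rfx5, Ctss, Ifi30 and genes under single peaks were added after their values were seen. Other window, flank and block sizes, stricter and equal-length lists, a covariate and each library left out were tried.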

Additional observations from a re-analysis of the deposited data

How the results depend on the processing

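No paired analysis was possible because the labels give no replicate numbers that the genotypes share. The class II interval difference of -0.770 points was 0.0221 with the upper 50% of each list by signal and -0.0424 at equal covered length, and it ranged from -1.63 to 0.0889 with a library left out. The difference in distance to the block below, 111 kb, was 114 kb at equal covered length, -0.489 kb with the upper 50%, -18.1 kb with gaps up to 5000 bp joined, -5.38 and -1.81 kb with blocks of at least 2000 and 10000 bp, -2.23 kb for peaks of any length, and from -2.24 to 225 kb with a library left out. The distance above kept its sign throughout (-26.2 to -1.59 kb). With all windows kept, 22 gene ends were higher and 5 lower in KO, and 8 gene bodies were higher, and the cause was not tested. The 2 gene bodies called higher were 0 at equal covered length, with the covariate, and from 0 to 0 with a library left out, while the upper 50% gave 3 higher and 2 lower. The H2-DMb2 and H2-Aa coverage was lost with the upper 50% and at equal covered length, as was that of Ciita. At 10% in place of 25%, 1 end was marked in KO replicate 2 and 2 in WT replicate 1, and at 50% none was in any library. Depth is unknown, so an uncovered gene had no called peak and is not shown to lack the mark.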
